A study of Homo sapiens with 6 samples.

Results

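Aminoacyl-tRNA synthetases are the enzymes that join each amino acid to its transfer RNA (tRNA), the step that ties the genetic code to protein synthesis. The genes described here were the rows of the count table whose symbols name a cytosolic or mitochondrial synthetase, and the rule that picks them reads symbols only, not values. There were 37 of them among 54261 rows, 20 for cytosolic and 17 for mitochondrial enzymes. The series holds 6 RNA samples of PC9/GR, which the labels describe as lung cancer cells and which is a human cell line: 3 had received a small interfering RNA (siRNA) against the long non-coding RNA MYLK-AS1 (si-MYLK-AS1) and 3 a control siRNA (si-NC). The labels name no other treatment and no other allele, and both groups come from 1 cell line. The sources used here give no siRNA sequence, dose or time of harvest. The question named by the series title is whether MYLK-AS1 acts on glutamine metabolism and on resistance to drugs against EGFR, the epidermal growth factor receptor.

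Cells keep a synthetase for every amino acid in the cytosol and, with a few exceptions, a separate one for mitochondrial protein synthesis, coded by a nuclear gene whose symbol ends in 2. GARS and KARS each serve both compartments from a single gene. EPRS joins the glutamyl and prolyl enzymes in a single protein, and FARSA and FARSB code for the subunits of the cytosolic phenylalanyl enzyme. QARS has no mitochondrial partner, because mitochondria charge their glutamine tRNA with glutamate and then convert it with an amidotransferase that takes nitrogen from glutamine. Synthetases fall into class I and class II, which differ in the fold of the catalytic domain. Several cytosolic enzymes sit together in a multi-tRNA synthetase complex held by the scaffold proteins AIMP1, AIMP2 and EEF1E1. In mammalian cells short of amino acids, the transcription factor ATF4 raises many cytosolic synthetase genes.

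MYLK-AS1 had 0, 5 and 4 reads in si-MYLK-AS1 replicates 1 to 3, against 20, 16 and 19 in si-NC replicates 1 to 3, and its log2 fold change was -2.43 (SE 0.60, adjusted p = 0.00326 by edgeR's quasi-likelihood test). Library totals were 7551303 to 11055408 reads in the si-MYLK-AS1 group and 8867818 to 10978513 reads in the si-NC group. Levels are given as CPM, after scaling between libraries. CPM are the reads of a gene relative to the library's reads in all genes that passed a filter on low counts. Of 8 tested epithelial markers 5 were lower in si-MYLK-AS1, 1 was higher and 2 were not called, and their part in the synthetase results was not tested. KRT18, a keratin, was at 2475 ± 138 CPM in si-MYLK-AS1 and 4255 ± 88.9 CPM in si-NC, and the junction gene CDH1 at 44.3 ± 9.49 CPM in si-MYLK-AS1 and 96.7 ± 18.7 CPM in si-NC (SD, n = 3 each). The leukocyte genes PTPRC and CD3E had no read in any library, while CD68, a lysosomal macrophage marker, was at 285 ± 22.4 CPM in si-MYLK-AS1 and 193 ± 40.5 CPM in si-NC (SD, n = 3 each). Some epithelial or lung adenocarcinoma markers had few or no reads: EPCAM was at 0.524 to 0.639 CPM in si-MYLK-AS1 and 1.28 to 1.67 CPM in si-NC, EGFR was at 3.00 to 3.98 CPM in si-MYLK-AS1 and 1.56 to 3.11 CPM in si-NC, NKX2-1 was at 0 to 0.913 CPM in si-MYLK-AS1 and 0.222 to 0.366 CPM in si-NC, and SFTPB had no read. A level of 3 reads, taken as the floor, corresponds to 0.274 to 0.410 CPM. The labels do not say that the replicates came from separate cultures, so the p-values reflect the spread among these 6 libraries, which may be technical. Bulk RNA cannot tell fewer cells of a kind from less RNA per cell.

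Most cytosolic synthetase genes rose, and most mitochondrial ones were not called. The difference between the compartments was not tested as such. All 20 cytosolic genes passed the filter on low counts, and 13 of them were higher in si-MYLK-AS1, 1 was lower and 6 were not called, with edgeR's quasi-likelihood test and a threshold of 0.05 on the adjusted p. Over all 15391 tested genes, 21.3% were higher and 20.7% were lower. The median log2 fold change of the cytosolic genes was 0.32, against 0.00 (to 2 decimals) for all tested genes. Of the 17 mitochondrial genes 16 passed the filter, 3 were higher, 2 were lower and 11 were not called, a share near that of all genes, with a median of -0.15. The changes were small: called members lay between -0.45 and 0.90 on the log2 scale. No CPM overlap between the groups was seen for 14 cytosolic genes higher in si-MYLK-AS1 and 1 lower, and for 3 mitochondrial genes higher and 3 lower, where 26.1% of all tested genes were higher without overlap and 26.1% lower.

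**Figure D1:**
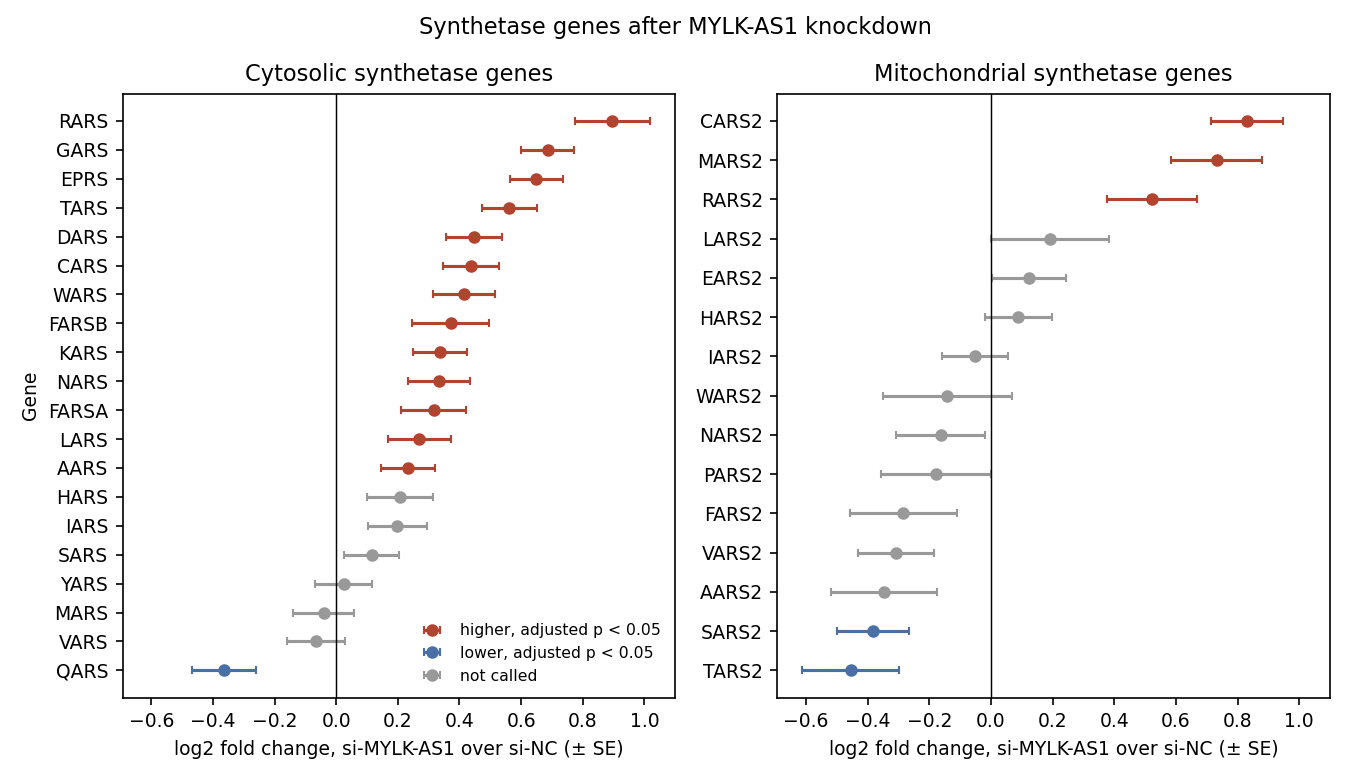
Log2 fold change (si-MYLK-AS1 over si-NC, horizontal axis) of the 20 cytosolic and 15 of the 16 tested mitochondrial synthetase genes, with SE bars from edgeR. Colours mark genes higher, lower or not called at an adjusted p of 0.05. Of the cytosolic genes 13 lie at the right in red, from AARS at 0.23 to RARS at 0.90, and QARS alone is at the left in blue, while the mitochondrial genes lie on both sides of 0.

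The promoters of these genes were read from RefSeq (GRCh38.p14), as 250 bases before to 50 bases after each annotated start, and 30 of the 37 genes had an entry. The word TGATGNAA, the core of the C/EBP-ATF response element through which ATF4 acts on amino acid genes, was searched on both strands. It stood in the promoters of 8 of the 30 (26.7%, 95% exact binomial interval 12.3% to 45.9%), against 3.62% of all 35116 promoters and 2.44% of 9950 tested genes with an entry. Members and tested genes were counted if any of their promoter entries held it, whereas the share of all promoters is over single entries. The members are a chosen family and not a random sample of genes, so the interval is only descriptive. Of the cytosolic genes with an entry, 7 of 16 held it: AARS, CARS, GARS, IARS, MARS, NARS and TARS. Of the mitochondrial genes YARS2 alone held it, among 14 with an entry. The stretches are shown because 6 of them carry the same 8 bases. Each is 30 bases, 5′ to 3′ on the strand that holds the word, with the word in capitals.

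AARS: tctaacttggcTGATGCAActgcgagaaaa
CARS: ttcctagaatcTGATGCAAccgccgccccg
GARS: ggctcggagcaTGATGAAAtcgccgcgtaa
IARS: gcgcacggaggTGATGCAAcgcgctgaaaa
MARS: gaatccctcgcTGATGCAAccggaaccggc
NARS: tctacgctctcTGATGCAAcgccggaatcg
TARS: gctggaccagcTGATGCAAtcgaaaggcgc
YARS2: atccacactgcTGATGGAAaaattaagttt

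On GRCh38.p14 these lie at chr16:70289675-70289704 on the plus strand (AARS), chr11:3057407-3057436 plus (CARS), chr7:30594834-30594863 minus (GARS), chr9:92293692-92293721 plus (IARS), chr12:57488053-57488082 minus (MARS), chr18:57621804-57621833 minus (NARS), chr5:33440956-33440985 minus (TARS) and chr12:32756076-32756105 minus (YARS2). The base N of the word is C in AARS, CARS, IARS, MARS, NARS and TARS, A in GARS and G in YARS2. In CARS, GARS, IARS, MARS, NARS and TARS the word begins between 33 bases before and 14 bases after an annotated start, and in AARS and YARS2 187 and 197 bases before it. Of the 7 cytosolic genes with it, 5 rose (median log2 fold change 0.33), and of the 9 with an entry and without it, 6 rose and 1 fell (median 0.34), a comparison that was not tested. The E-box word CACGTG, searched in the same way, was in the promoters of CARS2, EARS2, IARS and MARS2, 13.3% of the 30 genes, against 12.5% of tested genes with an entry. A word is a description of the sequence and does not show that a factor binds there.

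For TARS and GARS, which have 2 promoter entries each, the entry that holds the word is given whole, 300 bases on the plus strand. The other entry of each gene does not hold the word. These genes were chosen because they were the holders of the word with the greatest rise. Capitals mark the word, which reads on the opposite strand in both. The first is TARS, from chr5:33440715-33441014, and the second GARS, from chr7:30594628-30594927 (GRCh38.p14).

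TARS: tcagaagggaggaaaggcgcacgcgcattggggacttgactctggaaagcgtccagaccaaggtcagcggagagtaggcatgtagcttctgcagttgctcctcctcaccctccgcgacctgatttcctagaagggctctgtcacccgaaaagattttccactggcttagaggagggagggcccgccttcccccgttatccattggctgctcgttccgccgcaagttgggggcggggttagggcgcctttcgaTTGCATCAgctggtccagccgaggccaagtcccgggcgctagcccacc
GARS: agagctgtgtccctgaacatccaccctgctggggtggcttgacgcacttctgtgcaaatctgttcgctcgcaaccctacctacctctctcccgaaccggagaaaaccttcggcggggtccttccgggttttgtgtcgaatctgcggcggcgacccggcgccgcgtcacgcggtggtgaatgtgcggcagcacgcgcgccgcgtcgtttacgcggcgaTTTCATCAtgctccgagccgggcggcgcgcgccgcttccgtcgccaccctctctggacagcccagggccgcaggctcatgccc

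Among the 8 enzymes of the multi-tRNA synthetase complex, 5 rose (RARS, EPRS, DARS, KARS and LARS), QARS fell, and IARS and MARS were not called. RARS, the arginyl enzyme (chr5:168486445-168519299, plus strand, GENCODE 29 on GRCh38), had the greatest rise of all synthetase genes. It was at 120, 137 and 177 CPM in si-MYLK-AS1 replicates 1 to 3, against 82.2, 72.9 and 77.9 CPM in si-NC replicates 1 to 3. The groups were apart, and si-MYLK-AS1 replicate 3 stood above the other libraries of its group. The log2 fold change was 0.90 (SE 0.12, adjusted p = 1.75e-05), and 0.74 without that library.

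EPRS, the glutamyl and prolyl enzyme (chr1:219968601-220046658, minus strand), was at 280, 289 and 268 CPM in si-MYLK-AS1, against 183, 182 and 170 CPM in si-NC. Its replicates were close together and the groups far apart, and the log2 fold change was 0.65 (SE 0.09, adjusted p = 1.29e-05). DARS, the aspartyl enzyme (chr2:135906677-135986100, minus strand), was at 139, 141 and 150 CPM in si-MYLK-AS1 and 109, 104 and 102 CPM in si-NC, and the groups were again apart. Its log2 fold change was 0.45 (SE 0.09, adjusted p = 0.000715). The lysyl enzyme gene KARS rose by less, to 350 ± 24.3 CPM in si-MYLK-AS1, against 277 ± 6.59 CPM in si-NC (SD, n = 3 each, log2 fold change 0.34, edgeR adjusted p = 0.00500). The leucyl enzyme gene LARS, at 0.27 with an adjusted p of 0.0430, was the weakest of the called rises by p. Its call was lost in 10 of 14 alternatives, among them DESeq2, limma-voom and the fits without si-MYLK-AS1 replicate 2 or 3 or without si-NC replicate 1 or 2.

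QARS, the glutaminyl enzyme (chr3:49095932-49105135, minus strand), went the other way. It was at 122, 106 and 92.7 CPM in si-MYLK-AS1 replicates 1 to 3, against 134, 136 and 144 CPM in si-NC replicates 1 to 3. All si-MYLK-AS1 libraries lay below all si-NC libraries, with replicate 3 the lowest. The log2 fold change was -0.36 (SE 0.10, adjusted p = 0.00953), and it remained past the threshold in all 14 alternative fits. QARS was named here because it was the only cytosolic member that fell, after its values were seen.

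IARS, the isoleucyl enzyme, was at 0.20 (adjusted p = 0.110) and MARS, the methionyl enzyme, at -0.04 (SE 0.10, adjusted p = 0.771), and both groups overlapped for each. MARS had 99.8, 102 and 105 CPM in si-MYLK-AS1, against 111, 110 and 93.4 CPM in si-NC, so the single si-NC replicate 3 was below all other libraries. Of the 3 scaffold genes, AIMP2 rose to 92.0 ± 7.12 CPM in si-MYLK-AS1, against 64.2 ± 4.03 CPM in si-NC (SD, n = 3 each, log2 fold change 0.52, edgeR adjusted p = 0.000613). AIMP1 (0.18, adjusted p = 0.255) and EEF1E1 (-0.08, adjusted p = 0.809) were not called.

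Of the 12 cytosolic genes outside the complex, 8 rose and none fell. The count of rises was 5 without si-MYLK-AS1 replicate 3, without si-NC replicate 1 or without si-NC replicate 2. GARS, the glycyl enzyme of cytosol and mitochondria (chr7:30594681-30634033, plus strand), led them. It was at 260, 242 and 258 CPM in si-MYLK-AS1, against 156, 156 and 161 CPM in si-NC, and the libraries of each group lay close together (log2 fold change 0.69, SE 0.09, adjusted p = 6.78e-06).

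TARS, the threonyl enzyme (chr5:33440696-33469539, plus strand), was at 212, 229 and 221 CPM in si-MYLK-AS1, against 142, 157 and 148 CPM in si-NC, again with no overlap. Its log2 fold change was 0.56 (SE 0.09, adjusted p = 6.90e-05). TARSL2, which codes for a second threonyl enzyme much like it in sequence, had 0.52 (adjusted p = 0.0337), a call lost in several alternatives, and was named after its values were seen because reads may be shared between the pair. CARS, the cysteinyl enzyme (chr11:3000922-3057613, minus strand), was at 152, 159 and 162 CPM in si-MYLK-AS1 and 120, 109 and 120 CPM in si-NC. The groups were apart, and the log2 fold change was 0.44 (SE 0.09, adjusted p = 0.000849).

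WARS, the tryptophanyl enzyme, is also known as an interferon-inducible gene. It was at 121, 138 and 155 CPM in si-MYLK-AS1, against 103, 106 and 102 CPM in si-NC (chr14:100333788-100376805, minus strand), so the si-NC libraries were tight and the si-MYLK-AS1 libraries spread upward from them. The log2 fold change was 0.41 (SE 0.10, adjusted p = 0.00314). Of 38 tested interferon-inducible genes 22 rose and 6 fell, where 21.3% of all tested genes were higher and 20.7% lower. Those with the lowest p were SAMD9, DDX58, IFIT5 and PARP9, with log2 fold changes of 2.43, 1.42, 1.32 and 1.08. The 6 that fell were IFITM1 (-1.24), IFITM3 (-1.06), BST2 (-0.79), PSMB9 (-0.43), PSMB8 (-0.37) and IRF1 (-0.29). The list had 14 to 26 rises when each library was left out in turn. Libraries without which the counts moved most were si-MYLK-AS1 replicate 2 (14 rises), si-MYLK-AS1 replicate 3 (15 rises and 3 falls), si-MYLK-AS1 replicate 1 (2 falls), si-NC replicate 1 (14 rises) and si-NC replicate 3 (3 falls). These genes, too, differed between libraries of a group. Relative to the si-NC mean, their median lay at 0.24, 0.73 and 0.65 (log2) in si-MYLK-AS1 replicates 1 to 3 and at -0.11, -0.20 and 0.24 in si-NC replicates 1 to 3. Their part in the WARS result was not tested.

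The phenylalanyl enzyme rose in both subunits. FARSB, its beta subunit (chr2:222570536-222656337, minus strand), was at 75.5, 87.3 and 112 CPM in si-MYLK-AS1 replicates 1 to 3, against 66.1, 70.5 and 74.7 CPM in si-NC. The lowest si-MYLK-AS1 library was barely above the highest si-NC library, and replicate 3 carried much of the difference. Its log2 fold change was 0.37 (SE 0.12, adjusted p = 0.0231), and FARSA, the alpha subunit, had 0.32 (SE 0.11, adjusted p = 0.0234). Both calls were lost without si-MYLK-AS1 replicate 3, without si-NC replicate 1 and without si-NC replicate 2, where the FARSB adjusted p was 0.139, 0.0839 and 0.0567.

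The asparaginyl gene NARS (0.33, adjusted p = 0.0131) and the alanyl gene AARS (0.23, adjusted p = 0.0386) rose too. The NARS call was lost without si-MYLK-AS1 replicate 2. The AARS call was lost in 9 of 14 alternatives, among them each fit that left out a si-MYLK-AS1 library or si-NC replicate 1 or 2. HARS, SARS, YARS and VARS, for histidine, serine, tyrosine and valine, lay between -0.06 and 0.21 and were not called. YARS was the least changed synthetase gene, at 131, 131 and 151 CPM in si-MYLK-AS1, against 137, 136 and 133 CPM in si-NC (log2 fold change 0.02, SE 0.09, adjusted p = 0.857). By class, 8 of 10 class II genes rose and none fell, and 5 of 10 class I genes rose and 1 fell. EPRS, which joins the glutamyl and prolyl enzymes and rose, was counted in class I only, so the split depends on that choice. The class II count was 5 without si-MYLK-AS1 replicate 3, si-NC replicate 1 or si-NC replicate 2, and the difference between classes was not tested.

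**Figure D2:**
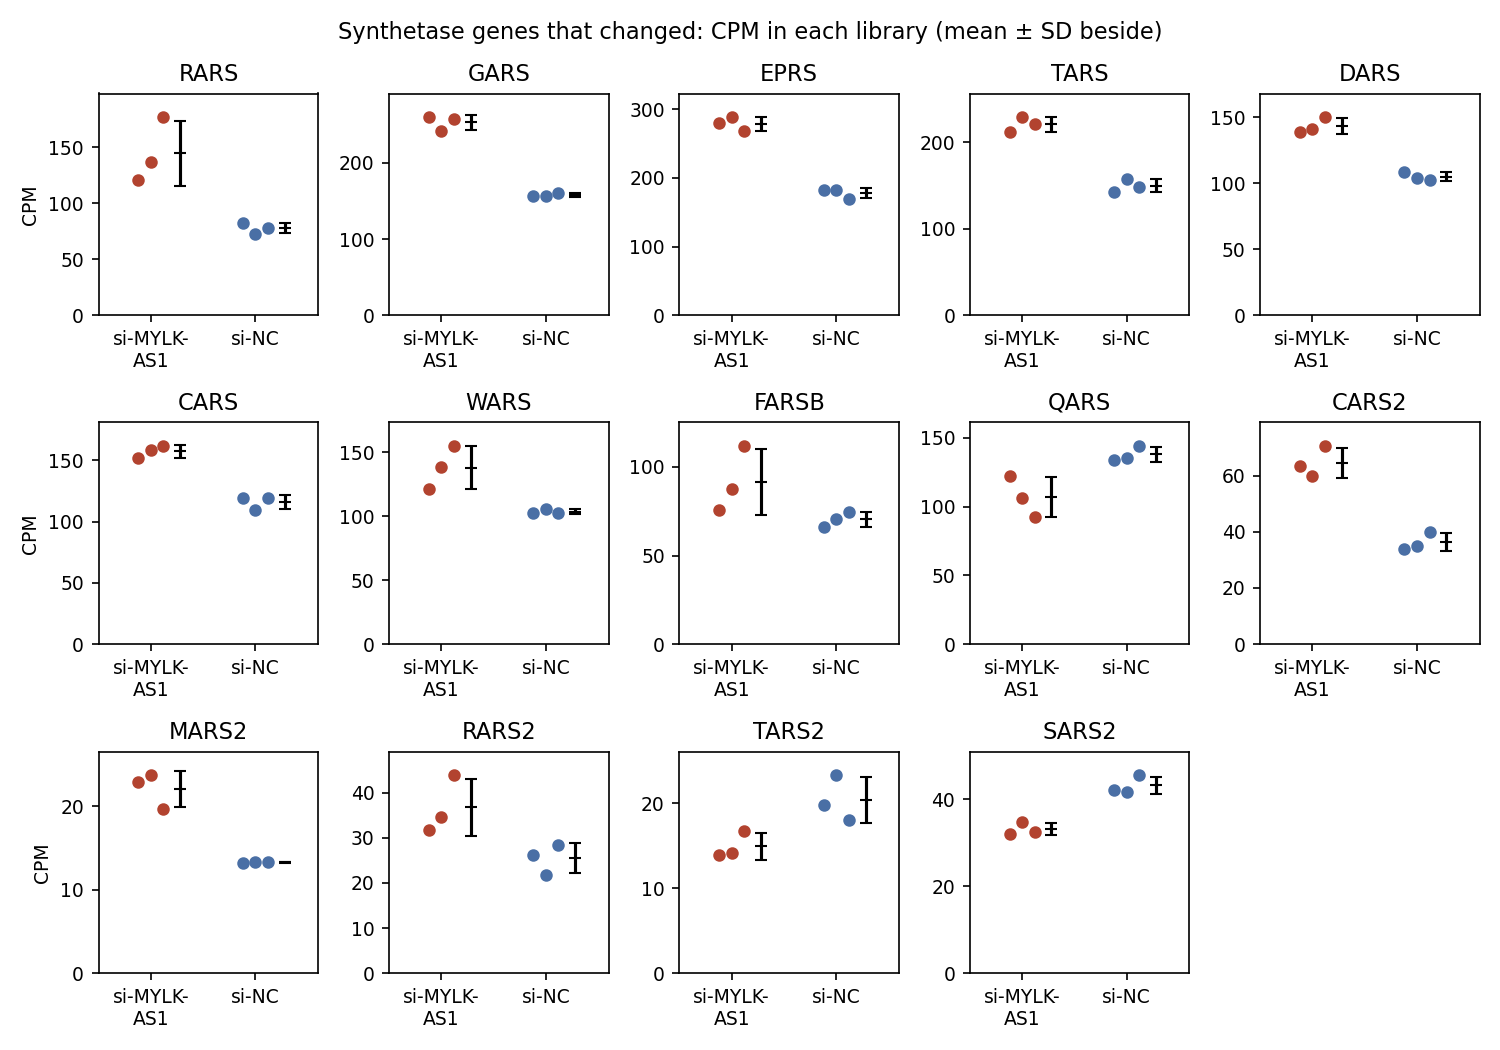
CPM (vertical axis, from 0) of 14 synthetase genes that changed, with 1 point for each of the 3 si-MYLK-AS1 and 3 si-NC libraries and the mean ± SD in black beside them. The genes are the 8 cytosolic ones with the greatest absolute log2 fold change, QARS, and all 5 called mitochondrial ones. The groups are apart in every panel, most narrowly for FARSB (lowest si-MYLK-AS1 75.5 CPM, highest si-NC 74.7 CPM).

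The mitochondrial genes moved singly. CARS2, the mitochondrial cysteinyl enzyme (chr13:110641412-110713603, minus strand), rose most. It was at 63.6, 59.9 and 70.4 CPM in si-MYLK-AS1, against 33.8, 35.1 and 39.8 CPM in si-NC, and the groups were far apart (log2 fold change 0.83, SE 0.12, adjusted p = 2.33e-05). MARS2, the mitochondrial methionyl enzyme, coded on chr2:197705369-197708387 (plus strand), was at 22.8, 23.7 and 19.7 CPM in si-MYLK-AS1 and 13.2, 13.3 and 13.4 CPM in si-NC. Its si-NC libraries were nearly equal and all below the si-MYLK-AS1 ones (log2 fold change 0.73, SE 0.15, adjusted p = 0.000680).

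RARS2, the mitochondrial arginyl enzyme (chr6:87514378-87590003, minus strand), was at 31.8, 34.5 and 43.8 CPM in si-MYLK-AS1 replicates 1 to 3, against 26.1, 21.8 and 28.4 CPM in si-NC replicates 1 to 3. As for RARS, si-MYLK-AS1 replicate 3 was the highest library. The log2 fold change was 0.52 (SE 0.15, adjusted p = 0.00830), and the call was lost without si-NC replicate 2 (adjusted p = 0.0570). Cysteine and arginine were thus the amino acids for which both the cytosolic and the mitochondrial gene rose.

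SARS2, the mitochondrial seryl enzyme (chr19:38915266-38930896, minus strand), fell. It was at 32.1, 34.8 and 32.6 CPM in si-MYLK-AS1, against 42.3, 41.8 and 45.6 CPM in si-NC, with no overlap (log2 fold change -0.38, SE 0.12, adjusted p = 0.0139). Of its annotated exon bases 46.2% also belong to AC011455.2, a gene on the same strand, and the counting rule is not given, so its count is uncertain. TARS2, the mitochondrial threonyl enzyme (chr1:150487364-150507609, plus strand), was at 13.9, 14.2 and 16.8 CPM in si-MYLK-AS1, against 19.8, 23.3 and 18.03 CPM in si-NC. The groups did not overlap but came close, the log2 fold change was -0.45 (SE 0.16, adjusted p = 0.0271), and the call was lost without si-MYLK-AS1 replicate 1 or 2 and without si-NC replicate 1 or 2.

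The 11 mitochondrial genes that were not called lay between -0.35 (AARS2) and 0.19 (LARS2). VARS2, the mitochondrial valyl enzyme, missed the threshold narrowly: it was at 28.6, 29.6 and 25.7 CPM in si-MYLK-AS1, against 33.1, 35.3 and 35.5 CPM in si-NC, with no overlap (-0.31, adjusted p = 0.0526). It was called lower with upper quartile factors, with no factors and with the filter of 5 CPM, and 22.0% of its exon bases also belong to GTF2H4. IARS2 was the least changed of the mitochondrial genes, at 95.1, 115 and 93.5 CPM in si-MYLK-AS1, against 110, 111 and 93.7 CPM in si-NC (log2 fold change -0.05, SE 0.11, adjusted p = 0.732). YARS2 had 1, 0 and 0 reads in si-MYLK-AS1 and 2, 1 and 3 reads in si-NC, did not pass the filter, and is listed with no fold change.

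Every library of si-MYLK-AS1 held more cytosolic synthetase message than every si-NC library. The 20 cytosolic genes summed to 3388, 3525 and 3742 CPM in si-MYLK-AS1 replicates 1 to 3, against 2867, 2871 and 2808 CPM in si-NC replicates 1 to 3, a mean of 3552 ± 178 against 2849 ± 35.4 CPM (SD, n = 3 each), 24.7% more. The 17 mitochondrial genes summed to 567, 590 and 573 CPM in si-MYLK-AS1 and 582, 579 and 542 CPM in si-NC, with overlap. The si-MYLK-AS1 libraries were not alike. The median cytosolic gene lay 0.16, 0.30 and 0.42 (log2) above the si-NC mean in replicates 1 to 3, and replicate 3 was the highest of its group for 11 of the 16 synthetase genes that rose. Without that library, which was also the one with the fewest reads, 9 cytosolic genes rose and 1 fell. The number of cytosolic rises was also 9 without si-NC replicate 1 and 9 without si-NC replicate 2.

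**Figure D3:**
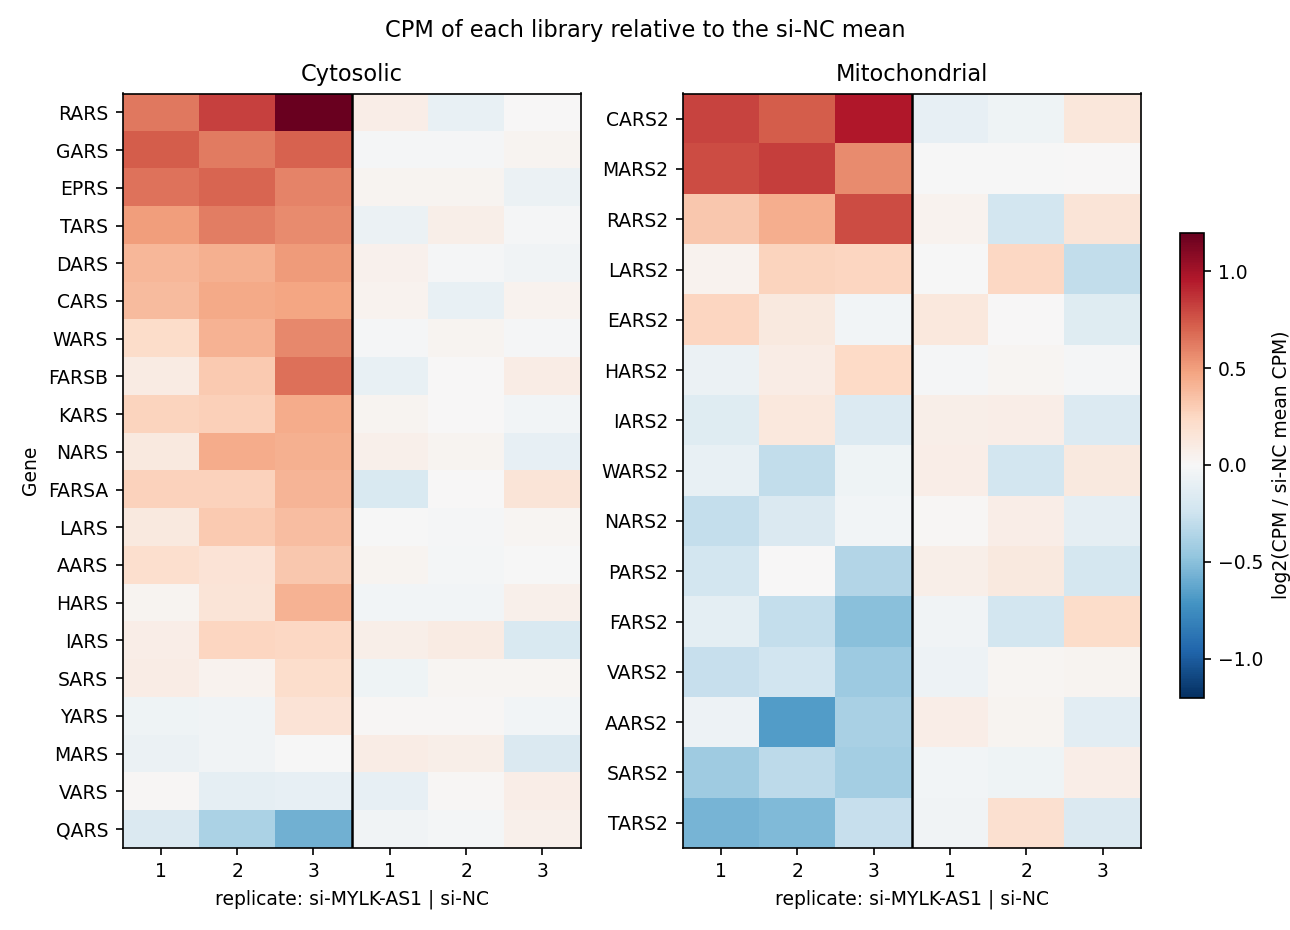
CPM of the 20 cytosolic and 15 of the mitochondrial synthetase genes in each library relative to the si-NC mean (colour, log2 scale), with genes in rows, ordered by log2 fold change, and the 3 si-MYLK-AS1 libraries left of the 3 si-NC libraries in each panel. Red is above and blue below the si-NC mean. The cytosolic panel is red on its left for most genes and deepest in si-MYLK-AS1 replicate 3 (median 0.42), and the mitochondrial panel is red for CARS2, MARS2 and RARS2 and mixed or blue for most others.

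The ratio of a cytosolic gene to the mitochondrial gene of the same amino acid was taken within each library, where scaling between libraries cancels. Of 17 such ratios 15 had a higher mean in si-MYLK-AS1 and 2 a lower one, with differences from -0.76 to 1.01 (log2). EPRS and FARS2 each enter 2 ratios, so these are not independent. The ratios come from the same counts as the fold changes above and are not separate support for them. The greatest difference was for threonine. TARS over TARS2 was 15.3, 16.2 and 13.2 in si-MYLK-AS1, against 7.20, 6.74 and 8.23 in si-NC, a log2 difference of 1.01 with no overlap. Two-sided exact permutation tests gave p = 0.1 for this ratio, the smallest that 3 against 3 samples allow. Every other ratio without overlap had the same p, so it does not set threonine apart.

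Proline followed, where EPRS over PARS2 was 27.7, 24.4 and 28.9 in si-MYLK-AS1, against 14.7, 14.2 and 16.6 in si-NC (log2 difference 0.83). Methionine went the other way, since MARS2 rose and MARS was not called. MARS over MARS2 was 4.37, 4.31 and 5.32 in si-MYLK-AS1, against 8.42, 8.30 and 6.99 in si-NC, a log2 difference of -0.76. For cysteine both genes rose but CARS2 by more, and CARS over CARS2 differed by -0.40. FARSB over FARS2 differed by 0.65 but overlapped between groups. HARS and HARS2, whose starts lie 85 bases apart on opposite strands, differed by 0.12 with overlap, and LARS over LARS2 by 0.06 with overlap.

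**Figure D4:**
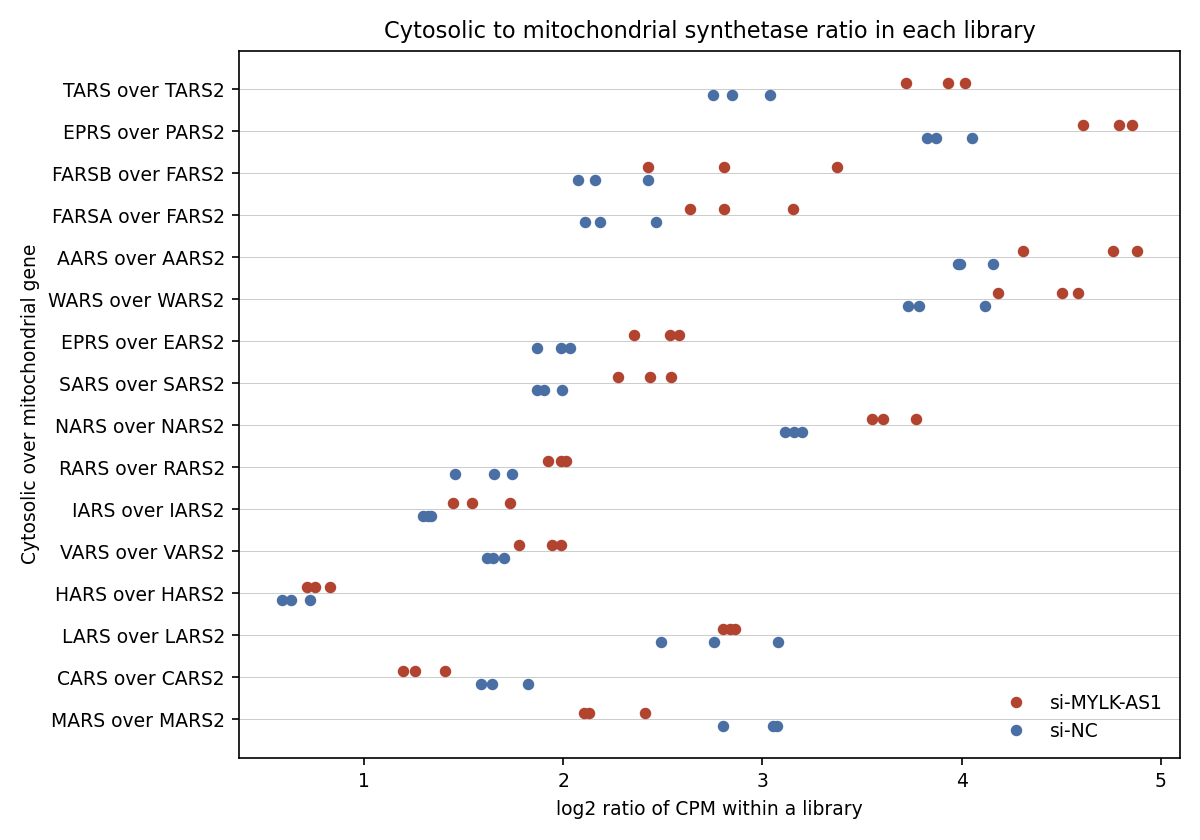
Log2 ratio of cytosolic to mitochondrial CPM within each library (horizontal axis) for 16 of the 17 gene pairs (rows, ordered by the difference), with 3 si-MYLK-AS1 points above 3 si-NC points in each row. TARS over TARS2 is at the top (difference 1.01), and MARS over MARS2 (-0.76) and CARS over CARS2 (-0.40) are at the bottom, with si-MYLK-AS1 at the left of si-NC.

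Levels were compared between genes as CPM per kilobase of annotated exon. KARS was the most abundant synthetase message, at 86.0 ± 5.97 CPM per kilobase in si-MYLK-AS1 and 68.1 ± 1.62 in si-NC (SD, n = 3 each). AARS followed at 76.9 ± 4.62 in si-MYLK-AS1 and 65.4 ± 1.41 in si-NC, and its si-NC mean differed from that of KARS by less than the sum of their SDs. In si-NC, NARS came next at 43.1 ± 2.60, and SARS was within its spread at 42.7 ± 1.22. In si-MYLK-AS1, GARS came after AARS, at 61.1 ± 2.33, and NARS at 54.3 ± 6.67 was within the sum of their SDs. In CPM, KARS was at 333, 338 and 377 in si-MYLK-AS1, against 283, 277 and 270 in si-NC. AARS was at 338, 330 and 369 in si-MYLK-AS1, against 301, 289 and 293 in si-NC. NARS was at 190, 239 and 236 in si-MYLK-AS1, against 184, 181 and 164 in si-NC, and none of the 3 genes overlapped between groups. In si-NC, mitochondrial genes lay from 25.2 ± 2.33 for IARS2 to 1.40 ± 0.263 for LARS2, apart from YARS2. The cytosolic genes lay from 68.1 ± 1.62 for KARS to 7.97 ± 0.108 for LARS, so the ranges of the compartments overlapped. Exon lengths are those of all annotated transcripts of a gene together, and the transcripts used by these cells are not known.

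The genes around charging were described from lists, which were drawn up with earlier results of these data known. For each list, the share over all tested genes was 21.3% higher and 20.7% lower. Of 24 tested genes of tRNA maturation and export, 14 rose and 1 fell, with a median log2 fold change of 0.39. The La protein gene SSB, which binds new tRNA transcripts, rose to 155 ± 16.7 CPM in si-MYLK-AS1, against 95.7 ± 6.67 CPM in si-NC (SD, n = 3 each, log2 fold change 0.70, edgeR adjusted p = 3.24e-05). The tRNA exporter XPOT (0.51, adjusted p = 0.000521) and the RNA kinase CLP1 (0.80, adjusted p = 7.33e-05) rose too, and the splicing endonuclease subunit TSEN54 fell (-1.16, adjusted p = 1.62e-06). Of 7 elongation factor genes that carry charged tRNA to ribosomes of the cytosol or mitochondria, or recycle the factor that does, 3 rose (EEF1A2, EEF1D and TSFM) and none fell. That count was 1 without si-NC replicate 2. EEF1A1 had 0.24 (adjusted p = 0.0682).

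Among 12 tested genes of proofreading, of mitochondrial tRNA amidation and of related steps, 4 rose (DTD2, PTRH2, MTFMT and TARSL2) and 2 fell. The count was 2 rises without si-MYLK-AS1 replicate 1 or si-NC replicate 2, and 1 fall without si-MYLK-AS1 replicate 1 or 3 or si-NC replicate 1 or 3. It was also 1 fall with DESeq2, with no filter and with the filter of 5 CPM. The genes that fell belong to the mitochondrial amidotransferase, the route named above for glutamine tRNA. QRSL1, its catalytic subunit, had 7, 4 and 0 reads in si-MYLK-AS1, against 20, 30 and 34 reads in si-NC, few in every library but apart between the groups (log2 fold change -2.78, SE 0.51, adjusted p = 0.000317). The subunit gene GATB had -0.56 (adjusted p = 0.0339), with 60, 70 and 49 reads in si-MYLK-AS1 and 84, 88 and 118 reads in si-NC. The other subunit gene, GATC, was not called (0.05, adjusted p = 0.913). GATB and GATC were named after their values were seen, as the partners of QRSL1. Among the fits that leave out 1 library, the GATB call was lost without si-MYLK-AS1 replicate 1 or 3 and without si-NC replicate 1 or 3. EARS2, which charges the mitochondrial glutamine tRNA with glutamate in the same route, was not called (0.12, adjusted p = 0.437). The 2 falls among 12 genes are a share near the 20.7% of all tested genes that were lower, and 21.3% were higher. DTD2, which removes wrongly charged amino acids, rose (1.22, adjusted p = 1.81e-05), as did PTRH2 (0.52, adjusted p = 0.00166) and the formyltransferase MTFMT (0.45, adjusted p = 0.0214).

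Of 29 tested genes of the ATF4 stress response, 13 rose and 6 fell, with a median of 0.32. Among all tested genes 21.3% were higher and 20.7% lower, so the falls of this list were near that share. ATF4 itself, named as the factor after which the list is called, was at 450, 454 and 461 CPM in si-MYLK-AS1, against 345, 314 and 394 CPM in si-NC (log2 fold change 0.37, SE 0.09, adjusted p = 0.00413). STC2 (1.57), SLC7A5 (1.31) and TRIB3 (1.06) rose and CEBPB fell (-1.36), all with adjusted p of 2.07e-07 or less by edgeR's quasi-likelihood test. The list ranged from -1.58 to 1.57, and besides CEBPB the genes DDIT4, MTHFD2, NUPR1, PHGDH and VLDLR fell. The cytosolic synthetase genes had a median like that of the ATF4 list (0.32) and fewer falls. That likeness was not particular to the ATF4 list. The median was 0.39 for tRNA maturation and export, 0.37 for proofreading and amidation and 0.24 for the elongation factors. The lists were not tested against each other, and the part of ATF4 in the synthetase results was not tested.

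Some synthetase counts are uncertain for reasons of annotation. Exons of CARS, DARS, HARS, HARS2, KARS, MARS, SARS2, WARS and YARS, among others, overlap a gene on the opposite strand. The greatest overlap of a single such pair was 11.7% of exon bases (HARS2, with HARS). MARS overlaps both ARHGAP9 (7.38%) and DDIT3 (5.05%). Whether reads were counted by strand is not stated. Of 15 rows named as pseudogenes of a synthetase, 8 had no read and the others 104 reads in all 6 libraries together. The word AGCTTA, chosen after results of these data were seen, stood in the longest annotated 3' UTR of 6 of 37 members, against 27.6% of 11516 tested genes. The members that fell, QARS, SARS2 and TARS2, did not hold it, like most members. The median log2 fold change was 0.07 for the 6 tested members with it and 0.20 for the 30 without. Among all tested genes searched, the medians were 0.01 with it and 0.07 without. The part of this word in the results was not tested.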

How the data were processed

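Total RNA of PC9/GR cells was extracted with Trizol and made into Ion Proton RNA-Seq libraries, per the labels' protocols. The authors deposited 1 table of raw read counts per gene symbol for 6 libraries, and its columns carry the sample titles. Per the submitters' processing notes, reads were placed on GRCh38. No source used here names the aligner, counter, annotation or strand setting.

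Counts were tested across all genes with edgeR 4.0.16 in R 4.3.3 (filterByExpr, TMM factors, robust quasi-likelihood fit, two-sided F test), with Benjamini-Hochberg adjustment over 15391 genes and a threshold of 0.05. CPM use TMM-adjusted library sizes, counted over the genes that passed the filter. The SE is the absolute log2 fold change over the square root of F. The test was also run on simulated counts with a fixed spread and far fewer changed genes than in these data. That run is not used as support here. The floor is 3 reads and covers counting error only. The rule for members uses symbols only, but the gene family, like the lists, was chosen with earlier results of these data known. A mitochondrial gene enters the counts and is not reported here. Full values go to the 8 called members per compartment with the greatest absolute log2 fold change, the 3 most abundant per length and up to 3 of the least changed, and up to 4 members of each other list by p. Positions and exon lengths came from GENCODE 29, matched by symbol, and promoters from RefSeq (GRCh38.p14). Alternatives were RLE, upper quartile or no factors, no filter, 5 CPM in 3 libraries, DESeq2 1.42.0, limma-voom 3.58.1, leaving out each library, the replicate number as a block, and a threshold of 0.01.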

Additional observations from a re-analysis of the deposited data

How the results depend on the processing

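Over the 14 alternative fits and the threshold of 0.01, 491 of 540 values for the 36 tested synthetase genes kept their direction and their side of the threshold. The number of cytosolic genes higher was 9 to 13 in the alternative fits, 12 with DESeq2 and 12 with limma-voom, and 8 at an adjusted p of 0.01. Leaving out each library in turn gave 9 to 13. The number of mitochondrial genes lower was 1 to 3 when each library was left out in turn, with 1 without si-MYLK-AS1 replicate 2, si-NC replicate 1 or si-NC replicate 2, and 0 at an adjusted p of 0.01. Of the 13 cytosolic rises 8 were called in all 14 alternative fits, as were QARS, 2 of 3 mitochondrial rises and 1 of 2 mitochondrial falls. Direction changed for YARS (-0.0095 with the filter of 5 CPM, -0.0063 with no factors, -0.0032 with upper quartile factors, and -0.0389 to 0.0662 when each library was left out in turn), for IARS2 (-0.150 to 0.00794 when each library was left out) and for GATC (-0.0107 with limma-voom, -0.00448 with the replicate block, and -0.229 to 0.318 when each library was left out). None of these was called in any of those fits, and the cause was not tested.

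The titles give both groups the same replicate numbers, but same-numbered libraries did not deviate together (correlations -0.05, 0.07 and 0.05). With the replicate number as a block, 3321 genes were higher and 3200 lower, against 3274 and 3183 without it, and 13 cytosolic genes were higher and 1 lower, and 3 mitochondrial genes higher and 2 lower. Not every library matched its own number best. Leaving out each library in turn, an alternative chosen after seeing the data, gave ratio differences of 0.94 to 1.09 for TARS over TARS2, 0.78 to 0.91 for EPRS over PARS2, -0.86 to -0.71 for MARS over MARS2 and 0.40 to 0.87 for FARSB over FARS2. The promoter share of TGATGNAA was 20% of members in the window from 100 bases before the start.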
